A study of Mus musculus with 4 samples.

Results

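The genes described here encode the core and accessory subunits of Polycomb repressive complex 2 (PRC2) and the demethylases that remove its mark from lysine 27 of histone H3. They are Ezh2, Ezh1, Eed, Suz12, Jarid2, Mtf2, Phf19, Kdm6a and Kdm6b, and they were taken as the rows of the deposited expression table that carry these names, which gave 9 of its 34745 genes. The table holds 4 RNA sequencing libraries of CD4+ T cells from wild-type C57BL/6 mouse spleen, with 1 library in each group. Th17 and Treg cells had been kept for 3 days under conditions for Th17 or Treg differentiation, Th0 cells had been stimulated for 3 days through CD3 and CD28, and Naive cells were taken from the spleen without culture. The sources used here give neither the cytokines added for Th17 and Treg differentiation, nor the age and sex of the mice, nor the number of animals behind a library. All 4 groups carry the same wild-type genotype.

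PRC2 places methyl groups on lysine 27 of histone H3, and the trimethylated form marks genes that are kept silent. Ezh2 and Ezh1 are alternative catalytic subunits, Eed and Suz12 form the core with them, and Jarid2, Mtf2 and Phf19 are accessory subunits that help bring the complex to chromatin. Kdm6a and Kdm6b remove the methyl groups. In helper T cells this mark covers genes of the lineages a cell has not taken up, and Ezh2 is known to limit the output of effector cytokines after activation.

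The libraries held between 10256627 and 12414372 counts, and all 9 genes passed the filter of at least 10 counts in every comparison, with 124 counts as their lowest value. Levels are given as CPM, the read count after scaling the library total by its TMM factor, and levels of different genes are compared only as FPKM, which also divides by gene length. Because there is 1 library a group, the differences below could not be checked against replicates, and the intervals are 95% intervals for the counting of reads. To be called, a gene had to differ by at least 2-fold on the scale of CPM plus 1, with an interval of the count ratio that left out 1. Scaling to library totals would shift the all-gene median of the log2 ratio by -0.24 in Th0 over Naive, by 0.28 in Th17 over Th0 and by 0.31 in Treg over Th0. Upper quartile scaling would move these medians by -0.12, 0.13 and 0.14, and TMM factors from genes expressed in culture by -0.25, 0.19 and 0.19. In bulk RNA, fewer cells of a type and less RNA per cell cannot be told apart.

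The labels were read against the defining genes of each lineage. Il17a, a Th17 cytokine, had 90.4 CPM in Th17, 14.7 in Treg, 0 in Th0 and 0.245 in Naive. Foxp3, the Treg transcription factor, had 51.5 CPM in Treg, 11.3 in Th17 and 1.37 in Th0, and its level of 129 CPM in Naive was above that in Treg. The Naive library also held transcripts of other blood cells. The 8 B cell markers summed to 101 to 441 CPM in the cultured libraries, against 3671 CPM in Naive, the 8 macrophage markers to 31.3 to 44.8 CPM, against 3821 CPM in Naive, and the 6 neutrophil markers to 1.60 to 10.2 CPM, against 1422 CPM in Naive. The 6 dendritic cell markers summed to 9.04 to 27.6 CPM in culture, against 320.4 CPM in Naive, and the 6 erythroid and platelet markers to 6.07 to 9.07 CPM, against 135 CPM in Naive. The 7 T cell markers summed to 2997 to 3532 CPM in culture, against 2960 CPM in Naive, and the 5 CD8 T and NK cell markers to 38.0 to 72.5 CPM, against 85.6 CPM in Naive. Every ratio over Naive below compares these mixtures as well as the culture, and the part of other cells in it was not tested. The cultured libraries also differed in B cell markers, with most in Th0 and least in Treg. The part of these cells in ratios between cultures was not tested either. The dendritic cell markers Cd209a and Siglech and the platelet marker Gp9 were at 0 counts in all 3 cultured libraries, but other markers were present. At least 10 counts were held by 3 of the 6 dendritic cell markers in Th17, 3 in Treg and 1 in Th0. The same held for 1 of the 6 erythroid and platelet markers in each. Itgax had 4.50 CPM in Th17, 13.9 CPM in Treg and 0.572 CPM in Th0, and Flt3 8.61, 6.76 and 0.916 CPM.

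The promoters of 4 of these genes are shown. Ezh2 and Kdm6a were called higher in Th0 than in Naive, while Suz12 and Phf19 were not but held a match to the motif below. Ezh1, Eed, Jarid2 and Mtf2 are not shown, as they were neither called higher there nor held a match. Each runs from 250 bases before to 50 bases after the start that RefSeq gives for the gene on GRCm38.p6, and 8 of the 9 genes had an entry. Capitals mark a match to an E2F motif, searched on both strands as TTTGGCGC, TTTCCCGC, TTTGCCGC or TTTCGCGC.
Ezh2, chr6:47594981-47595280, minus strand: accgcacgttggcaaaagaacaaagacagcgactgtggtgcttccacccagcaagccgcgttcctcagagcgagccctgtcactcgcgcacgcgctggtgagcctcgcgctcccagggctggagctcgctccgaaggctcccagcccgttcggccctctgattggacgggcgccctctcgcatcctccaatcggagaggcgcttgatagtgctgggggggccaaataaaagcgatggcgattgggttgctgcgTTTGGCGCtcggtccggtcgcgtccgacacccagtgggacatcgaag
Kdm6a, chrX:18162325-18162624, plus strand: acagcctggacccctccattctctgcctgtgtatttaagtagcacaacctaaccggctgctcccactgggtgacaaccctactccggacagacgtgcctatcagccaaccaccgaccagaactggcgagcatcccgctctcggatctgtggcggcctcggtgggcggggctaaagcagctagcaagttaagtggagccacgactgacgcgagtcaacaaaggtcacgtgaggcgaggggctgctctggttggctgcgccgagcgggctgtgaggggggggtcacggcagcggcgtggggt
Suz12, chr11:79992856-79993155, plus strand: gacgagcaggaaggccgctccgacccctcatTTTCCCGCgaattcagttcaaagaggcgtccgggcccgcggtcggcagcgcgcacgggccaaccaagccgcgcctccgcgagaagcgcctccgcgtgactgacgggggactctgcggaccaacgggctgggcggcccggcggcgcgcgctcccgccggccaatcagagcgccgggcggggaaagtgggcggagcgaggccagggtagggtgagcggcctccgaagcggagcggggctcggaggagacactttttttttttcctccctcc
Phf19, chr2:34913927-34914226, minus strand: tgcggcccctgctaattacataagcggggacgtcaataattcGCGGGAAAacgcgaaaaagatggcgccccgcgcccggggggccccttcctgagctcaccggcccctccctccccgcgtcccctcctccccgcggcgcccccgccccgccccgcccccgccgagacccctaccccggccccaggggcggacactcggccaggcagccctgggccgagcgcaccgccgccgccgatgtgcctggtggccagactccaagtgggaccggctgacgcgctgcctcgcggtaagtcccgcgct
In Ezh2 the match began at base 4 after the start. In Suz12 it began 219 bases before the start, and in Phf19 it lay on the opposite strand, 208 bases before the start. Ezh1, Eed, Jarid2, Mtf2 and Kdm6a had none of these letters in the window. A match stood in 3 of the 8 genes with an entry (37.5%), and in 704 of the 27025 genes of the whole RefSeq table (2.61%), or 744 of its 32851 promoters (2.27%). Among promoters with the GC content range of the 3 that hold it, 232 of 5075 did (4.57%). That range was set by the 3 matches, and the promoters of Ezh1, Eed, Mtf2 and Kdm6a lay below it. It is therefore no matched background for the 8 genes. The match is a description of letters: it stood in Ezh2, which was highest in Th0, in Suz12, which was highest in Th17, and in Phf19, which was lowest in Naive, while Kdm6a was highest in Th0 with no match.

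The 9 genes did not move as a block. In Th0 over Naive, 2 of the 9 were called higher, against 18.5% of all 13995 tested genes, and 1 was called lower, against 27.2%. In Th17 over Th0, 1 of the 9 was called higher, against 20.1% of 13324 tested genes, and 2 were called lower, against 12.4%. In Treg over Th0, none of the 9 was called higher, against 20.2% of 13138 tested genes, and 2 were called lower, against 12.0%. These comparisons share the Th0 library, so they are not separate readings of it. In Th17 over Treg, none of the 9 was called in either direction, against 1.91% higher and 1.24% lower of 13346 tested genes. In Th17 over Naive, 1 of the 9 was called higher, against 15.5% of 14523 tested genes, and none lower, against 17.7%. In Treg over Naive, 1 of the 9 was called higher, against 14.9% of 14350 tested genes, and none lower, against 16.9%. With 9 genes these shares are not far from the background, so what follows rests on the size of single genes and not on the count. The median log2 ratio of the 9 genes was 0.70 in Th0 over Naive, 0.03 in Th17 over Th0, -0.46 in Treg over Th0 and 0.09 in Th17 over Treg, against -0.13, 0.09, 0.08 and -0.00 over all tested genes.

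**Figure D1:**
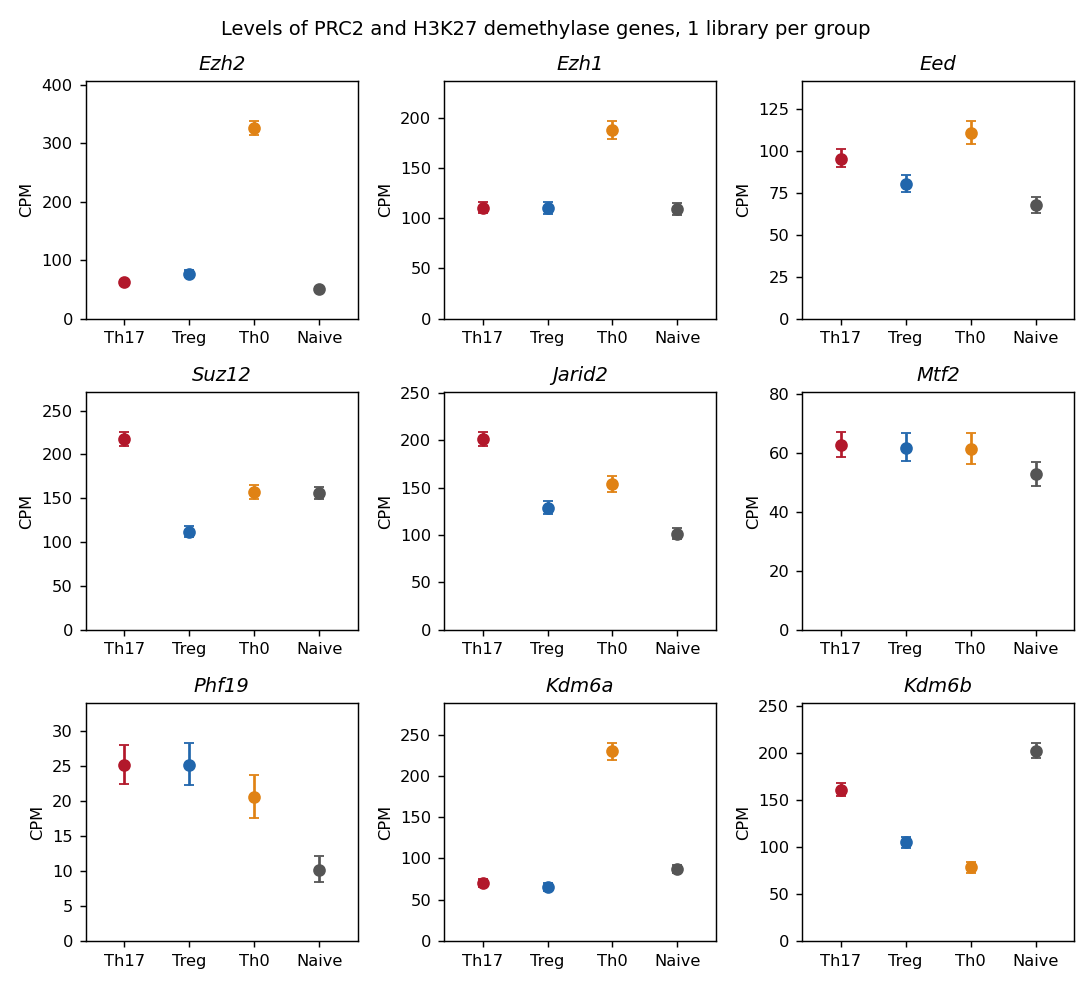
Level of each of the 9 genes in CPM (vertical axes, each starting at 0) in the Th17, Treg, Th0 and Naive libraries, 1 point a library, with bars for the 95% Poisson counting interval. Ezh2 stands at 327 CPM in Th0 and at most 77.2 CPM elsewhere, Kdm6a is also highest in Th0, and Kdm6b is lowest there.

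Among the catalytic subunits, Ezh2 (6:47530139-47595341 on GRCm38, minus strand) differed most. Its level was 62.1 CPM in Th17, 77.2 CPM in Treg, 327 CPM in Th0 and 50.8 CPM in Naive. The Th0 library stood alone, and the other 3 lay close together although their counting intervals separated them. Ezh2 was 6.43-fold higher in Th0 than in Naive (5.89 to 7.02), and 98.0% of tested genes had a log2 ratio no larger. It was 5.26-fold lower in Th17 than in Th0 (4.86 to 5.69), and in Treg 4.23-fold lower (3.92 to 4.57). Only 0.713% and 1.23% of tested genes had a log2 ratio as low in these comparisons. Between Th17 and Treg it was 1.24-fold lower in Th17 (1.13 to 1.37), which was not called. By CPM it was the 623rd gene in Th0, against rank 4449 in Naive.

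Ezh1 (11:101191115-101226463, minus strand), the paralog that is usually associated with resting cells, was no lower in the stimulated library. It had 110.3 CPM in Th17, 110.01 CPM in Treg, 188 CPM in Th0 and 109 CPM in Naive. Th0 was again the highest, and the intervals did not separate the other 3. Its excess in Th0 was 1.72-fold over Naive (1.60 to 1.86) and was not called, nor was it called in Th17 (1.70-fold lower than in Th0, 1.59 to 1.83) or in Treg (1.71-fold lower, 1.58 to 1.84). The share of Ezh2 in the summed FPKM of the pair was 40.9% in Th17 (38.9 to 43.1), 46.3% in Treg (44.2 to 48.5), 68.2% in Th0 (66.8 to 69.5) and 36.5% in Naive (34.3 to 38.7). Ezh2 was therefore the larger of the pair in Th0 and the smaller in the other 3 libraries. The ratio of Ezh2 reads to Ezh1 reads, which does not depend on the scaling between libraries, was 3.73-fold higher in Th0 than in Naive (3.33 to 4.18), 3.09-fold lower in Th17 than in Th0 (2.78 to 3.44) and, for Treg over Th0, 2.48-fold lower (2.23 to 2.76).

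**Figure D2:**
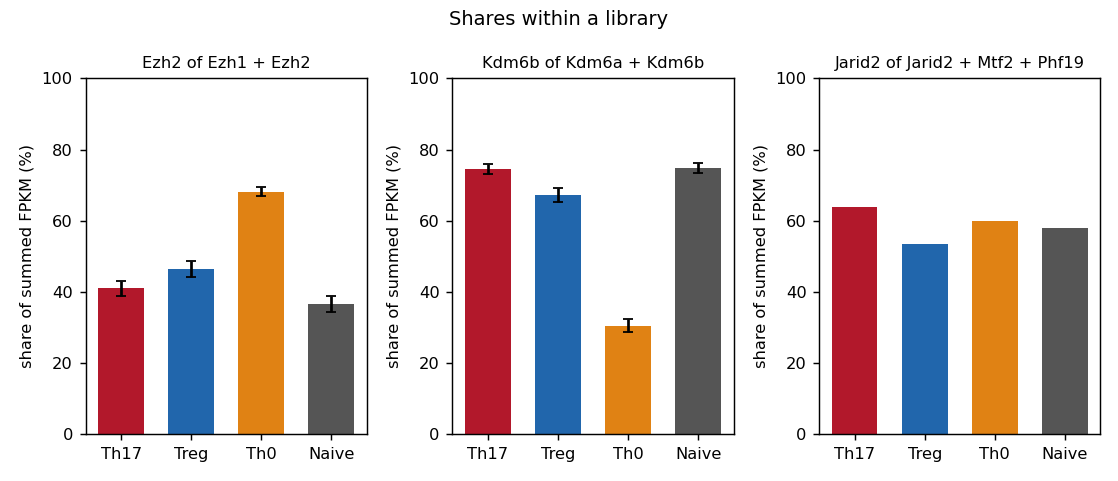
Share of the first-named gene in the summed FPKM of its group (vertical axis, percent) in each of the 4 libraries, 1 bar a library, with bars for the 95% exact binomial counting interval where the group is a pair. Ezh2 takes 68.2% of the Ezh pair in Th0 and at most 46.3% elsewhere, while Kdm6b takes 30.4% of its pair in Th0 and at least 67.2% elsewhere.

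The other core subunits varied less. Eed (7:89954656-89980983, minus strand), the subunit that reads trimethylated lysine 27, had 95.3 CPM in Th17, 80.3 CPM in Treg, 111 CPM in Th0 and 67.6 CPM in Naive. The intervals separated all 4 levels, with Th0 on top and Naive at the bottom, and the ratio of Th0 over Naive was 1.64 (1.49 to 1.80). Scaled to library totals, or as FPKM, the order of Th17 and Th0 turned, with a log2 ratio of 0.10 for Th17 over Th0 under both, against -0.21 with TMM factors.

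Suz12 (11:79993106-80034123, plus strand), which holds the complex together, followed a different order. It had 218 CPM in Th17, 112 CPM in Treg, 157 CPM in Th0 and 156 CPM in Naive. Th17 was highest, Treg was lowest, and Th0 and Naive were not separated, while with library totals the log2 ratio of Th0 over Naive was -0.26. Suz12 was 1.95-fold higher in Th17 than in Treg (1.82 to 2.08), just short of the call at a log2 ratio of 0.96. In that comparison 97.9% of all tested genes had a log2 ratio no larger, since Th17 and Treg differed little in most genes. Against Th0 its log2 ratio was 0.47 in Th17 and -0.49 in Treg, and against Naive it was 0.48 in Th17 and -0.48 in Treg. Neither was called, and the signs were the same under all 9 alternatives. The levels of Treg and Th0 lay closer together as FPKM (14.9 and 16.5).

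Summed over Ezh1 and Ezh2, the catalytic subunits had 0.622 FPKM for each FPKM of Suz12 in Th17, 1.33 in Treg, 2.72 in Th0 and 0.798 in Naive. The sum per FPKM of Eed was 0.443 in Th17, 0.577 in Treg, 1.20 in Th0 and 0.573 in Naive. Both ratios were highest in Th0 and lowest in Th17. The lengths behind the FPKM values do not match the annotation for every gene, so the sizes of these ratios depend on the lengths more than their order does. With the merged exon length of GENCODE the catalytic sum per Suz12 was 0.548 in Th17, 1.17 in Treg, 2.33 in Th0 and 0.706 in Naive, and the sum per Eed was 0.969 in Th17, 1.26 in Treg, 2.56 in Th0 and 1.26 in Naive.

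Accessory subunits decide which form of PRC2 is built. Jarid2 (13:44729474-44921643, plus strand), which marks the form known as PRC2.2, had 201 CPM in Th17, 129 CPM in Treg, 154 CPM in Th0 and 102 CPM in Naive. Th17 was highest and the intervals separated all 4 libraries, although the order of Treg and Th0 turned with library totals (log2 ratio 0.09 for Treg over Th0, against -0.25 with TMM factors). Jarid2 was 1.98-fold higher in Th17 than in Naive (1.85 to 2.12), just short of the call, and 1.56-fold higher in Th17 than in Treg (1.46 to 1.67). Suz12 and Jarid2 thus both stood highest in Th17.

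Mtf2 (5:108065674-108109004, plus strand), a Polycomb-like protein of the form known as PRC2.1, was the steadiest of the 9 genes. It had 62.7 CPM in Th17, 61.8 CPM in Treg, 61.4 CPM in Th0 and 52.7 CPM in Naive. The 3 cultured libraries were not separated, and the highest level was 1.19 times the lowest, a range below that of all but 2.43% of genes. Phf19 (2:34893757-34914026, minus strand), another Polycomb-like protein, had 25.1 CPM in Th17, 25.2 CPM in Treg, 20.5 CPM in Th0 and 10.1 CPM in Naive. Naive was the low library. Phf19 was 2.48-fold higher in Th17 than in Naive (2.01 to 3.07) and 2.48-fold higher in Treg than in Naive (2.004 to 3.10), and both were called. In Th0 over Naive the ratio was 2.02 (1.60 to 2.57), but with the pseudocount the log2 ratio was 0.95 and it was not called. Its calls over Naive were lost with a pseudocount of 5 CPM. They were also lost with FPKM, where 1 FPKM was added before the log2 ratio. Its FPKM was 3.18 in Th17, 3.26 in Treg and 1.25 in Naive, so the added 1 was large beside these values.

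Jarid2 made up 63.9% of the summed FPKM of Jarid2, Mtf2 and Phf19 in Th17, 53.3% in Treg, 59.9% in Th0 and 58.1% in Naive. The ratio of Jarid2 reads to Mtf2 reads was 1.54-fold higher in Th17 than in Treg (1.36 to 1.74).

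**Figure D3:**
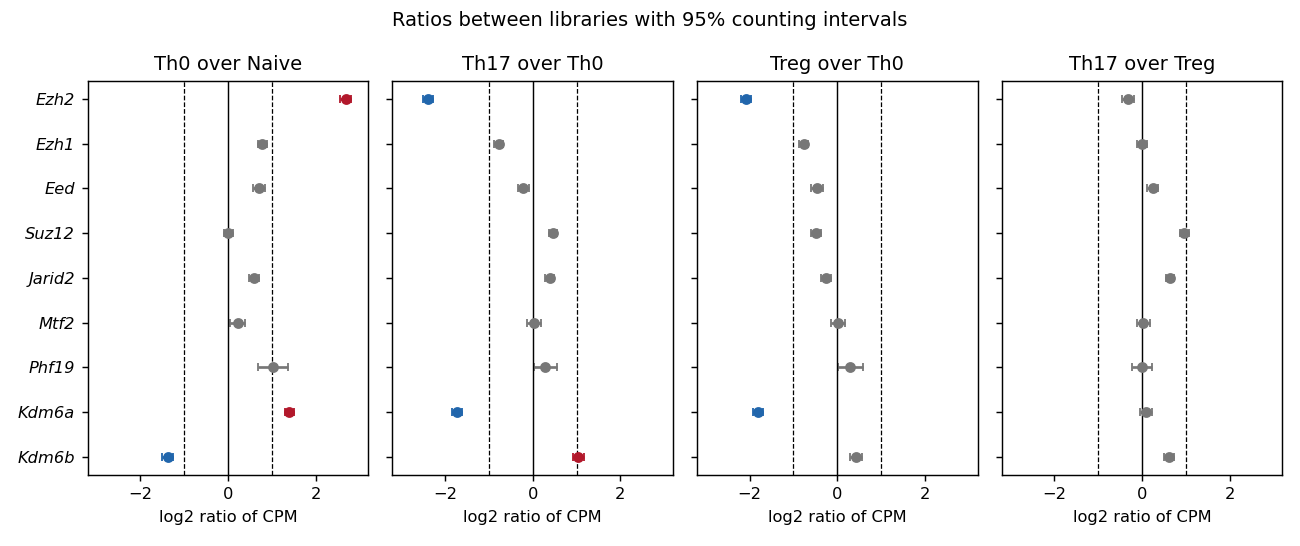
Log2 ratio of CPM (horizontal axes) between libraries for each of the 9 genes, with bars for the 95% exact counting interval of the count ratio, red for a gene called higher, blue for one called lower and grey for neither; dashed lines mark 2-fold. Ezh2, at 5.26-fold lower in Th17 than in Th0 and 4.23-fold lower in Treg, and Kdm6a are called lower in both polarised cultures, and no gene is called in Th17 over Treg.

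The demethylases differed in where Th0 stood. Kdm6a (X:18162575-18279936, plus strand), known as UTX and a subunit of the KMT2C and KMT2D methyltransferase complexes, had 70.0 CPM in Th17, 65.6 CPM in Treg, 229.7 CPM in Th0 and 87.1 CPM in Naive. Th0 alone was high, and the intervals did not separate Th17 and Treg. Kdm6a was 2.64-fold higher in Th0 than in Naive (2.45 to 2.84), 3.28-fold lower in Th17 than in Th0 (3.03 to 3.55) and in Treg 3.50-fold lower (3.22 to 3.82), and all 3 were called.

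Kdm6b (11:69398508-69413675, minus strand), known as JMJD3 and an enzyme that is induced by inflammatory signals in macrophages, had 161 CPM in Th17, 105.1 CPM in Treg, 78.4 CPM in Th0 and 203 CPM in Naive. Th0 was the lowest and Naive the highest, and the intervals separated all 4. Kdm6b was 2.59-fold lower in Th0 than in Naive (2.38 to 2.82), which was called. It was 2.05-fold higher in Th17 than in Th0 (1.88 to 2.24), a log2 ratio of 1.03, and it was not called with DESeq2 size factors (0.97) or a pseudocount of 5 CPM (0.99). It was 1.93-fold lower in Treg than in Naive (1.80 to 2.07), which was not called.

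Kdm6b made up 74.6% of the summed FPKM of the pair in Th17 (73.1 to 76.1), 67.2% in Treg (65.1 to 69.2), 30.4% in Th0 (28.6 to 32.3) and 74.9% in Naive (73.5 to 76.2). The major demethylase transcript was thus Kdm6a in Th0 and Kdm6b in the other 3 libraries. The ratio of Kdm6a reads to Kdm6b reads was 6.82-fold higher in Th0 than in Naive (6.09 to 7.65), 6.73-fold lower in Th17 than in Th0 (5.98 to 7.57) and in Treg 4.69-fold lower (4.13 to 5.34). Between Th17 and Naive that ratio differed by a factor of 1.01 (0.911 to 1.13). The summed FPKM of the pair varied less, with 31.4 in Th17, 23.2 in Treg, 30.2 in Th0 and 38.4 in Naive. The summed FPKM of Ezh1 and Ezh2 per summed FPKM of Kdm6a and Kdm6b was 0.565 in Th17, 0.855 in Treg, 1.49 in Th0 and 0.412 in Naive, so it exceeded 1 only in Th0 among these 4 libraries. With GENCODE lengths it was 0.766 in Th17, 1.15 in Treg, 1.92 in Th0 and 0.562 in Naive, where Treg also exceeded 1.

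**Figure D4:**
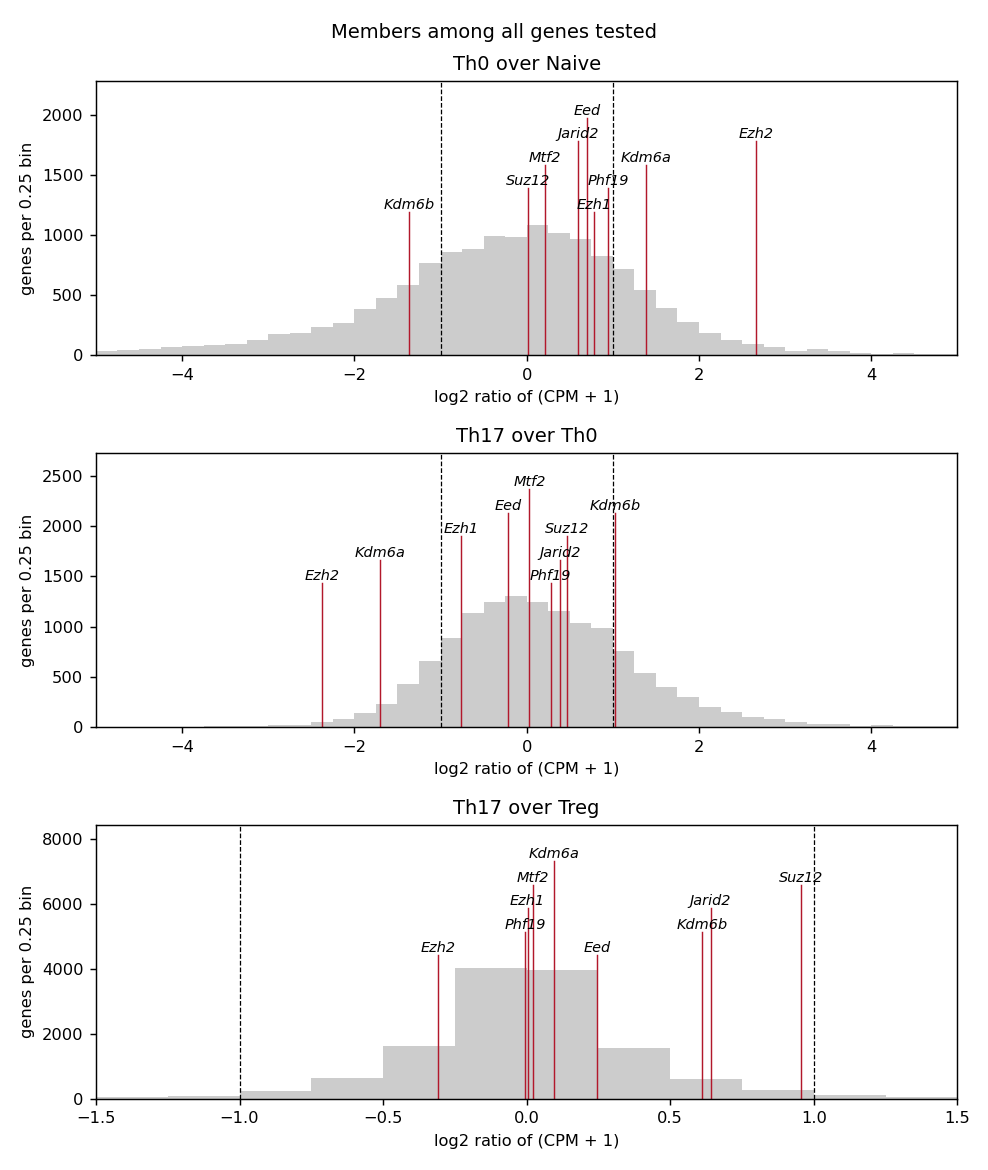
Histograms of the log2 ratio of CPM plus 1 over all tested genes (grey, genes per bin of 0.25), with red lines for the 9 genes and dashed lines at 2-fold, for Th0 over Naive, Th17 over Th0 and Th17 over Treg. Ezh2 stands above 98.0% of tested genes in Th0 over Naive, and Suz12 above 97.9% in Th17 over Treg; axes end at 5 and, for Th17 over Treg, at 1.5, and genes beyond these limits are not drawn.

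Several of the genes share exon sequence with a transcript on the other strand, and the strandedness of the libraries is unknown here. The overlap covered 6.93% of the exonic bases of Mtf2 (with Tmed5), 6.82% of Eed (with E230029C05Rik), 4.11% of Kdm6b (with Kdm6bos), 3.60% of Suz12 (with Gm26563) and 2.61% of Ezh2 (with Gm26625). Reads from these stretches could not be assigned to a strand. The lengths implied by the FPKM values were 2.91 times the GENCODE merged exon length for Mtf2 and 0.658 times for Eed, and lay between 1.05 and 1.72 times for the other 7, so the FPKM of Mtf2 is low and that of Eed is high relative to GENCODE lengths. Eed had the highest FPKM of the 9 genes in Th17 (40.0), Treg (34.5) and Th0 (37.4), and Kdm6b had it in Naive (28.7). This ranking rests on those lengths: with GENCODE lengths the highest was Suz12 in Th17 (46.5, against 26.3 for Eed), Treg (24.4, against 22.7 for Eed) and Naive (32.4, against 30.04 for Kdm6b), and Ezh2 in Th0 (41.6, against 24.6 for Eed).

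The genes whose profile over the 4 libraries lay nearest to that of Ezh2 were Tubb2b, a tubulin, Hsdl2 and Btg3. Their root mean square distance on the log2 scale was 0.055, 0.066 and 0.119, among 9939 genes, and 27 genes lay within 0.25. The nearest to Ezh1 were Rpl17, Ppp1cb and Cab39, at 0.015, 0.020 and 0.023, with 1704 genes within 0.25, so its profile was a common one. Those nearest to Kdm6b were Rasa4, Chml and Znhit2, at 0.061, 0.062 and 0.076, with 237 within 0.25. With 4 libraries a like profile is a description only.

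Other PRC2 proteins were read from a list of 8 partners, of which 7 were tested and AU022751 had 0 counts in every library. In Th0 over Naive, none was called higher, against 18.5% of all tested genes, and 2 were called lower, against 27.2%. The median log2 ratio was 0.23, against -0.13 over all tested genes. List medians smaller than the shifts between scalings given above can change sign with the scaling. In Th17 over Th0, 2 were called higher, against 20.1% of all tested genes, and 1 lower, against 12.4% (median -0.05). In Treg over Th0, 2 were called higher, against 20.2%, and none lower, against 12.0% (median 0.15). Aebp2, a cofactor of PRC2.2, had 465 CPM in Th17, 376 CPM in Treg, 173 CPM in Th0 and 147 CPM in Naive. It was 2.70-fold higher in Th17 than in Th0 (2.55 to 2.85) and 2.18-fold higher in Treg than in Th0 (2.05 to 2.31). E130012A19Rik, the table's name for Epop, which belongs to PRC2.1, had 43.3 CPM in Th17, 34.1 CPM in Treg, 3.55 CPM in Th0 and 12.5 CPM in Naive. It was 12.2-fold higher in Th17 than in Th0 (8.50 to 18.1) and 9.61-fold higher in Treg than in Th0 (6.65 to 14.3), and Th0 was the lowest library for it. Phf1, the third Polycomb-like protein, had 114 CPM in Th17, 104 CPM in Treg, 87.2 CPM in Th0 and 212 CPM in Naive. It was 2.43-fold lower in Th0 than in Naive (2.24 to 2.64), where its paralog Phf19 stood 2.02-fold higher. Rbbp4, a histone-binding subunit that PRC2 shares with other complexes, had 158 CPM in Th17, 185 CPM in Treg, 335 CPM in Th0 and 183 CPM in Naive, with Th17 2.13-fold lower than Th0 (2.01 to 2.25).

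PRC1, which binds the mark of PRC2 and ubiquitinates histone H2A, was read from 25 genes. Relative to Naive, 9 of the 25 were called higher in Th0, against 18.5% of all tested genes, and 2 lower, against 27.2%. Their median log2 ratio was 0.25. In Th17 over Th0, 2 were called higher, against 20.1% of all tested genes, and 2 lower, against 12.4% (median -0.27). In Treg over Th0, 3 were called higher, against 20.2%, and 3 lower, against 12.0% (median -0.28). Rnf2, the catalytic E3 ligase, had 80.2 CPM in Th17, 75.3 CPM in Treg, 185 CPM in Th0 and 74.6 CPM in Naive, and was 2.48-fold higher in Th0 than in Naive (2.28 to 2.69). Th0 alone was high, as for Ezh2. The largest ratios called in Th0 over Naive were those of Scml2, at 23.3-fold (9.58 to 73.5) with 9.50 CPM in Th0 and 0.408 CPM in Naive, and Pcgf2, at 6.53-fold (4.70 to 9.26). Pcgf5, a subunit of variant PRC1, had 70.7 CPM in Th17, 66.4 CPM in Treg, 125 CPM in Th0 and 22.3 CPM in Naive, and was 5.61-fold higher in Th0 than in Naive (4.91 to 6.43). Phc3, a Polyhomeotic protein, had 97.7 CPM in Th17, 434 CPM in Treg, 93.4 CPM in Th0 and 210.5 CPM in Naive. Treg stood highest, and Phc3 was the 1 PRC1 gene called between Th17 and Treg, 4.44-fold lower in Th17 (4.18 to 4.73). Of the genes that remove H2A ubiquitin or belong to that complex, 9 of 10 were tested. In Th0 over Naive, 1 was called higher and none lower, in Th17 over Th0, 1 was called higher and none lower, and in Treg over Th0 none was called. These counts lay below the shares of all tested genes given for PRC1. Ogt, its O-GlcNAc transferase, had 1308 CPM in Th17, 888 CPM in Treg, 491 CPM in Th0 and 363 CPM in Naive, and was 2.66-fold higher in Th17 than in Th0 (2.57 to 2.75).

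The partners of Kdm6a in the KMT2C and KMT2D complexes were split in where Th0 stood, with 4 of the 9 highest there. For Th0 over Naive, 1 was called higher, against 18.5% of all tested genes, and 2 lower, against 27.2%. The median log2 ratio was -0.12. In Th17 over Th0, 1 was called higher, against 20.1%, and 1 lower, against 12.4%. In Treg over Th0, 1 was called higher, against 20.2%, and 1 lower, against 12.0%. With 9 genes these counts are near the background. Pagr1a, a subunit particular to these complexes, had 0.610 CPM in Th17, 0.902 CPM in Treg, 5.49 CPM in Th0 and 1.71 CPM in Naive, which rests on 8 to 48 counts. It was 3.204-fold higher in Th0 than in Naive (1.88 to 5.63), 9.01-fold lower in Th17 than in Th0 (4.23 to 22.1) and in Treg 6.09-fold lower (3.04 to 13.5), the directions in which Kdm6a was called. Rbbp5, a core subunit, had 86.7 CPM in Th17, 86.0 CPM in Treg, 152 CPM in Th0 and 89.4 CPM in Naive, and was not called. Paxip1 and Dpy30 were also highest in Th0 and not called. Kmt2d, the scaffold methyltransferase, had 494 CPM in Th17, 534 CPM in Treg, 445 CPM in Th0 and 1115 CPM in Naive. It was 2.50-fold lower in Th0 than in Naive (2.42 to 2.59). Ash2l, another core subunit, had 40.5 CPM in Th17, 42.0 CPM in Treg, 12.5 CPM in Th0 and 41.5 CPM in Naive, and was 3.32-fold lower in Th0 than in Naive (2.70 to 4.13). Th0 alone was low for it.

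A further list held 15 enzymes: demethylases of the Jumonji type, enzymes of lysine 27, and Kdm1a, a demethylase of neither kind. In Th0 over Naive, 3 were called higher, against 18.5% of all tested genes, and none lower, against 27.2% (median 0.44). Kdm1a was among the 3, at 2.04-fold (1.87 to 2.22). In Th17 over Th0, none was called higher, against 20.1%, and 2 lower, against 12.4% (median -0.71). In Treg over Th0, none was called higher, against 20.2%, and 4 lower, against 12.0% (median -0.76). Uty, the Y-linked paralog of Kdm6a, had 53.8 CPM in Th17, 49.7 CPM in Treg, 103.1 CPM in Th0 and 26.7 CPM in Naive, and was 3.86-fold higher in Th0 than in Naive (3.40 to 4.40). Kdm5b, a demethylase of lysine 4, had 200 CPM in Th17, 168 CPM in Treg, 430.2 CPM in Th0 and 86.9 CPM in Naive. It was 4.95-fold higher in Th0 than in Naive (4.62 to 5.30) and 2.15-fold lower in Th17 than in Th0 (2.05 to 2.26). Crebbp, an acetyltransferase of lysine 27, had 86.9 CPM in Th17, 76.1 CPM in Treg, 176 CPM in Th0 and 210.0 CPM in Naive. It was 2.02-fold lower in Th17 than in Th0 (1.87 to 2.19). Of 13 other histone lysine methyltransferases tested, 3 were called higher and 2 lower in Th0 over Naive, 1 higher and 1 lower in Th17 over Th0, and none in Treg over Th0 or in Th17 over Treg. The same shares of all tested genes apply, with 1.91% higher and 1.24% lower in Th17 over Treg.

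Ezh2 is known as a target of E2F factors in cycling cells, so cell cycle genes were read beside it. Of 30 genes of the cell cycle and DNA replication, 24 were called higher and none lower in Th0 over Naive, with a median log2 ratio of 1.94. Over all tested genes the shares were 18.5% higher and 27.2% lower. Relative to Th0, none was called higher in Th17, against 20.1% of all tested genes, and 12 lower, against 12.4% (median -0.78). In Treg over Th0, none was called higher, against 20.2%, and 8 lower, against 12.0% (median -0.42). In Th17 over Treg none was called, against 1.91% higher and 1.24% lower of all tested genes, with a median of -0.33. Their summed level was 4194 CPM in Th17, 5061 CPM in Treg, 8400.2 CPM in Th0 and 1502 CPM in Naive. Th0 was highest, as for Ezh2, but Naive was lowest by a wide margin for the sum and by a narrow one for Ezh2. The sum is weighted to abundant genes such as Top2a. Of the 30 genes, 18 were not called in Th17 over Th0 and 22 were not called in Treg over Th0. Bub1, a spindle checkpoint kinase, was 21.4-fold higher in Th0 than in Naive (17.95 to 25.6) and Kif11, a mitotic kinesin, 19.7-fold higher (17.98 to 21.6). Top2a, a topoisomerase of dividing cells, had 809 CPM in Th17, 890.0 CPM in Treg, 2217 CPM in Th0 and 115 CPM in Naive. It was 7.05-fold higher in Th17 than in Naive (6.67 to 7.46), where Ezh2 was 1.22-fold higher (1.10 to 1.36). The part of cell division in the level of Ezh2 was not tested. Of 13 genes of the E2F and RB families, which share E2f1 and E2f2 with that list, 6 were called higher and none lower in Th0 over Naive (median 0.63). In Th17 over Th0, 1 was called higher and 4 lower, and in Treg over Th0, 2 higher and 3 lower. The shares of all tested genes are those given for the cell cycle list. Tfdp2, a dimer partner of E2F, had 25.4 CPM in Th17, 57.4 CPM in Treg, 79.4 CPM in Th0 and 10.6 CPM in Naive. It was 7.48-fold higher in Th0 than in Naive (6.20 to 9.10), and it was the 1 gene of the list called between Th17 and Treg, 2.26-fold lower in Th17 (1.98 to 2.59).

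**Figure D5:**
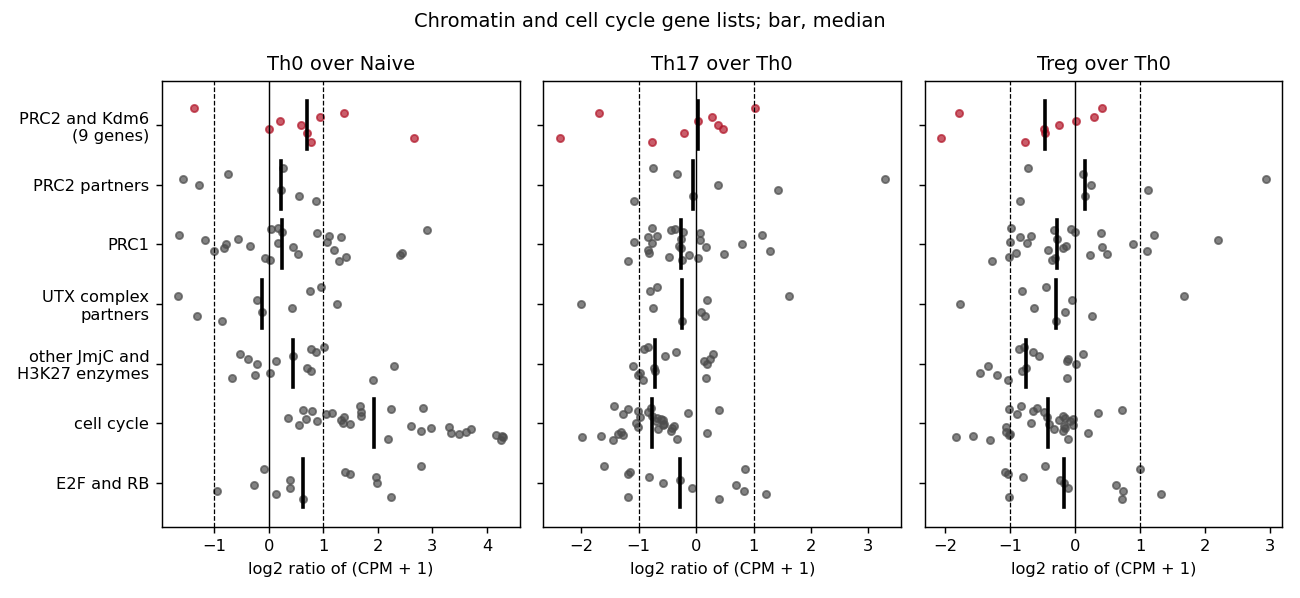
Log2 ratio of CPM plus 1 (horizontal axes) for each tested gene of 7 lists in Th0 over Naive, Th17 over Th0 and Treg over Th0, 1 point a gene, with a black bar for the list's median and dashed lines at 2-fold. The 30 cell cycle genes have a median of 1.94 in Th0 over Naive, against 0.70 for the 9 PRC2 and demethylase genes in red.

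Genes known from other work as targets of PRC2 in T cells were called in both directions. Of 13, 11 were tested, since Cdkn2a and Cdkn2b stayed under 10 counts in each library. In Th0 over Naive, where Ezh2 was highest, 5 were called higher, against 18.5% of all tested genes, and 3 lower, against 27.2%, with a median of -0.39. For Th17 over Th0, 2 of the 11 were called higher, against 20.1% of all tested genes, and 5 lower, against 12.4%, with a median of -0.92, against 0.09 over all tested genes. In Treg over Th0, 2 were called higher, against 20.2%, and 5 lower, against 12.0%, with a median of -0.79, against 0.08. Lower calls thus outnumbered higher ones in both polarised cultures relative to Th0. Tbx21, the Th1 transcription factor, had 6.10 CPM in Th17, 9.02 CPM in Treg, 67.8 CPM in Th0 and 23.5 CPM in Naive, and was 11.1-fold lower in Th17 than in Th0 (8.79 to 14.2). Gata3, the Th2 transcription factor, had 33.8 CPM in Th17, 58.7 CPM in Treg, 127 CPM in Th0 and 57.5 CPM in Naive, and was 3.76-fold lower in Th17 than in Th0 (3.37 to 4.21). Both were highest in the library where Ezh2 was highest. Cdkn1a, a cyclin kinase inhibitor, had 423 CPM in Th17, 363 CPM in Treg, 215 CPM in Th0 and 14.0 CPM in Naive. Id2, an inhibitor of E proteins, had 99.4 CPM in Th17, 48.0 CPM in Treg, 21.1 CPM in Th0 and 159 CPM in Naive, and was 7.53-fold lower in Th0 than in Naive (6.47 to 8.81). Histone methylation was not measured in these libraries.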

How the data were processed

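Total RNA was extracted with TRIzol and sequenced on an Illumina HiSeq platform, per the labels' protocols. The submitters' processing notes list Bowtie2 and RSEM with the builds mm10 and GRCm38.p6, but no versions or roles. The authors deposited whole-number read counts and FPKM values per gene, per the file headers. FPKM equalled the count divided by a gene length and the library total for 8988 of 8988 genes checked (tolerance 0.1%). Strandedness is not given in the sources used here.

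The 9 genes and all gene lists were chosen with earlier results of these data known. Counts were scaled with TMM factors from edgeR 4.0.16 in R 4.3.3 (1.06 for Th17, 1.08 for Treg, 0.850 for Th0 and 1.03 for Naive). Genes with at least 10 counts in 1 library of a pair were tested for size, with a pseudocount of 1 CPM on the log2 scale, and folds were taken without it. Where FPKM replaced CPM, 1 FPKM was added instead. Intervals were exact (Clopper-Pearson for count ratios and shares, Poisson for levels) at 95% and cover counting error only, since reads carry no molecular identifiers. With 1 library a group no p-value or SD was computed. At these depths 3 counts were worth 0.229 to 0.343 CPM. All 9 genes were named, and from each list some of the 4 called genes with the largest ratios in a comparison, with other measured partners as values. The size rule was run on simulated Poisson counts with planted changes of known size. These counts hold counting error only, so the run does not cover variation between cultures or animals. Scaling, pseudocount, filter, unit and depth were varied, with DESeq2 1.42.0 size factors among them. Lengths and overlaps came from GENCODE vM21, and promoters from RefSeq. Other software was scipy 1.17.1, pandas 2.3.3, numpy 2.4.6 and matplotlib 3.10.9 under Python 3.11.15.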

Additional observations from a re-analysis of the deposited data

Results flagged for a closer look

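Suz12 stood apart because its ratios ran in opposite directions in the polarised cultures. Its log2 ratio was 0.47 in Th17 over Th0 and -0.49 in Treg over Th0, and 0.48 in Th17 over Naive and -0.48 in Treg over Naive. As FPKM, Suz12 had 28.4 in Th17, 14.9 in Treg, 16.5 in Th0 and 19.8 in Naive, so its drop from Th0 to Treg was smaller there. Jarid2 had a log2 ratio of 0.39 in Th17 over Th0 and -0.25 in Treg over Th0, but the Treg value turned to 0.09 with library totals and 0.08 with FPKM. Each group is 1 library and the comparisons share the Th0 or the Naive library, so neither difference was tested.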

How the results depend on the processing

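Of 486 recomputed log2 ratios of the 9 genes, 413 counted as unchanged. For a called ratio this meant the same call and sign, whatever its size. For an uncalled one it meant a fold within the main counting interval and still no call. This fold holds no pseudocount, so under another pseudocount or no count filter an uncalled ratio could not leave that interval. All 9 genes pass the filter, so dropping it could change nothing. Part of the 413 was therefore fixed in advance. Another 64, all uncalled, left that interval, 6 lost and 3 gained the call, and no called gene changed sign. The calls of Ezh2 and Kdm6a, and of Kdm6b in Th0 over Naive, were made under each alternative. Genes called higher in Th17 over Naive numbered 2 with library totals (Jarid2 was added) and 0 with FPKM or a pseudocount of 5 CPM. The FPKM alternative added 1 FPKM before each log2 ratio, which shrinks the ratios of genes with low FPKM, so its counts of calls reflect that as well. In Treg over Naive they numbered 0 with FPKM or that pseudocount, and 1 gene (Kdm6b) was called lower with TMM factors from genes of cultured cells. In Th17 over Th0, 0 were called higher with DESeq2 size factors or that pseudocount. By read counts without length, the share of Ezh2 was 36.03% in Th17, 41.23% in Treg, 63.5% in Th0 and 31.82% in Naive, that of Kdm6b 69.67%, 61.58%, 25.45% and 69.97%, and that of Jarid2 69.6%, 59.67%, 65.24% and 61.78%, in the same order of libraries. With GENCODE lengths, an alternative chosen after seeing the data, the share of Ezh2 was 38.56%, 43.87%, 65.97% and 34.2%, and that of Jarid2 56.41%, 45.53%, 51.6% and 48.15%. Suz12 and Mtf2 in Th0 over Naive turned to -0.26 and -0.05 on the log2 scale with library totals. Over all genes, higher calls made up 40.5% of calls in Th0 over Naive and 29.6% with library totals, 61.9% and 79.3% in Th17 over Th0, and 62.8% and 81.8% in Treg over Th0. Lower calls in Th17 over Th0 numbered 1649, against 922 with library totals and 681 with FPKM, and in Treg over Th0 1575, against 810, 597 and 1048 with TMM factors from cultured cells. Th17 over Treg had 255 higher and 165 lower calls, against 426 and 360 with a pseudocount of 0.1 CPM. No paired analysis was possible because each group had 1 library. Leaving out a library was not possible for the same reason.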
